A study of Mus musculus with 24 samples.

Results

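The genes described here were the receptors for dopamine, noradrenaline and adrenaline, serotonin and acetylcholine in 2 areas of mouse frontal cortex, the medial prefrontal (mPFC) and anterior cingulate (ACC) cortex. They were chosen by name alone, as the protein-coding genes whose symbol starts with Drd, Adra, Adrb, Htr, Chrm or Chrn and carries a number. This rule found 46 of the 33364 genes in the count tables, namely 5 dopamine, 6 alpha adrenergic, 3 beta adrenergic, 14 serotonin, 5 muscarinic and 13 nicotinic receptor genes. The tissue came from mice labelled as C57BL/6 and 3 months old, taken 2 weeks after spared nerve injury (SNI), a surgical model of neuropathic pain in which branches of the sciatic nerve are cut and another is left intact, or after a sham operation. Each of the 8 groups (female sham, female SNI, male sham and male SNI, each in mPFC and ACC) held 3 libraries of total RNA, and all groups shared the strain and age. Each library was a separate pool of several animals, so that its value is an average over mice. Whether the mPFC and ACC pools with the same number came from the same mice was not stated.

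The monoamines reach the cortex from small nuclei of the brainstem and midbrain, and acetylcholine mainly from the basal forebrain. The receptors sit on cortical neurons, glia and incoming axons. Most of them are G protein-coupled receptors: Gs-coupled types raise cyclic AMP, Gi-coupled types lower it, and Gq-coupled types release calcium from internal stores. The nicotinic receptors and the serotonin receptor built from Htr3a are ion channels made of 5 subunits. In both cortical areas these systems are known for setting attention, working memory, mood and the response to pain.

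The libraries held 23853845 to 32864391 reads on genes, with a median of 26727282, so that 3 reads corresponded to 0.0913 to 0.126 CPM. CPM scales the reads of a gene by all reads on genes in its library, and the values given were also adjusted by trimmed mean of M-values (TMM) normalization over all 24 libraries. Xist and Ddx3y separated the libraries by sex as labelled, with Xist at 555 to 762 CPM in females and at most 3.02 CPM in males. The excitatory neuron markers summed to at least 4997 CPM in every library. A pair of libraries stood apart. The first female sham ACC library held 977 CPM of choroid plexus markers in sum against at most 83.6 CPM in any other, and the first female SNI mPFC library held 1128 CPM of oligodendrocyte markers against at least 2033 CPM in the others. Because bulk tissue was sequenced, fewer cells of a type and less RNA per cell cannot be told apart.

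The 4 promoters shown next were picked for display after the values were seen, because these receptors differed between mPFC and ACC in every sex and treatment described below: Drd2, Drd1 and Htr1b were higher in mPFC, and Chrm2 was higher in ACC. Htr7, Chrm3 and Adra1d, all higher in ACC, also did so and are not shown. For Htr7 and Chrm3 no such window could be cut, and Adra1d was not picked. For each of the 4 shown, 100 bases are printed 5′ to 3′, read from RefSeq promoter sequences of build GRCm38.p6. The window ends at the base before the outermost start that RefSeq or the annotation of the gene coordinates below (GENCODE M21) gives for the gene. For Drd2, Chrm2 and Htr1b it therefore lies upstream of the gene start given below without adjoining it. Capitals mark exact matches, on either strand, to the GC box core GGGCGG, to the core CCAAT of the CCAAT box or to the TATA box core TATAAA, and these 3 motifs did not overlap one another here.
Drd2, chr9:49340260-49340359, plus strand: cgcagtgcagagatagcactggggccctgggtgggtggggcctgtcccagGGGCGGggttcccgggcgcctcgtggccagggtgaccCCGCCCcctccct
Drd1, chr13:54055706-54055805, minus strand: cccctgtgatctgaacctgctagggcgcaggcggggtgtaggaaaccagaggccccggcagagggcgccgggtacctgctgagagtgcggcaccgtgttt
Htr1b, chr9:81633833-81633932, minus strand: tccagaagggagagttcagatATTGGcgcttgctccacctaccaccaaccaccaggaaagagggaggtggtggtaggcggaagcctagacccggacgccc
Chrm2, chr6:36387891-36387990, plus strand: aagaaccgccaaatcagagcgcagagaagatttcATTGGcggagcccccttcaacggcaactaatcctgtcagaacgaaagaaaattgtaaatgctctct
The table of promoters matched 35 of the 46 receptors, and for 23 of them a window of this kind could be cut. The GC box core was in 12 of these 23 windows, Drd2 among them, and in 37.5% of the windows of 9541 protein-coding genes. The CCAAT core was in 7 of the 23, Htr1b and Chrm2 among them, against 23.7% of all windows. The TATA core was in none of the 23 and in 4.11% of all. The window of Drd2 had a GC content of 76% and that of Chrm2 46%, and the median was 60% over the receptors and 61% over all genes. Among the 4 promoters shown, the CCAAT core was thus in 1 receptor higher in mPFC (Htr1b) and in 1 higher in ACC (Chrm2). Chrm2 was the only receptor higher in ACC that was shown.

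The receptors spanned from 203 CPM to 0.00279 CPM as a mean of the 24 libraries. The highest of each family were Chrm1 at 203 CPM, Chrnb2 at 69.6 CPM, Adra1d at 61.1 CPM, Htr2a at 54.6 CPM, Adrb1 at 46 CPM and Drd1 at 10.1 CPM. To compare genes, CPM was divided by the length of the annotated exons in kilobases. On that scale Adra1d (32.2) and Chrm1 (31.4), both Gq-coupled, lay above all others. They were followed by the Gs-coupled Adrb1 (13.6), the muscarinic Chrm4 (12.2) and Chrm3 (11.7), Adra1b (10.3), Htr2a (9.74), Chrna4 (8.95), Adra2c (8.72) and Chrnb2 (8.31). The highest dopamine receptor per kilobase was Drd1, at 2.78 CPM per kilobase. This order depends on the annotated exon lengths, which run from 1440 bases for Chrm4 to 9328 bases for Htr2c. Per kilobase of coding sequence alone, Chrm1 (147) led, followed by Chrm3 (41.3), Htr2a (38.6) and Adra1d (36.2).

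**Figure D1:**
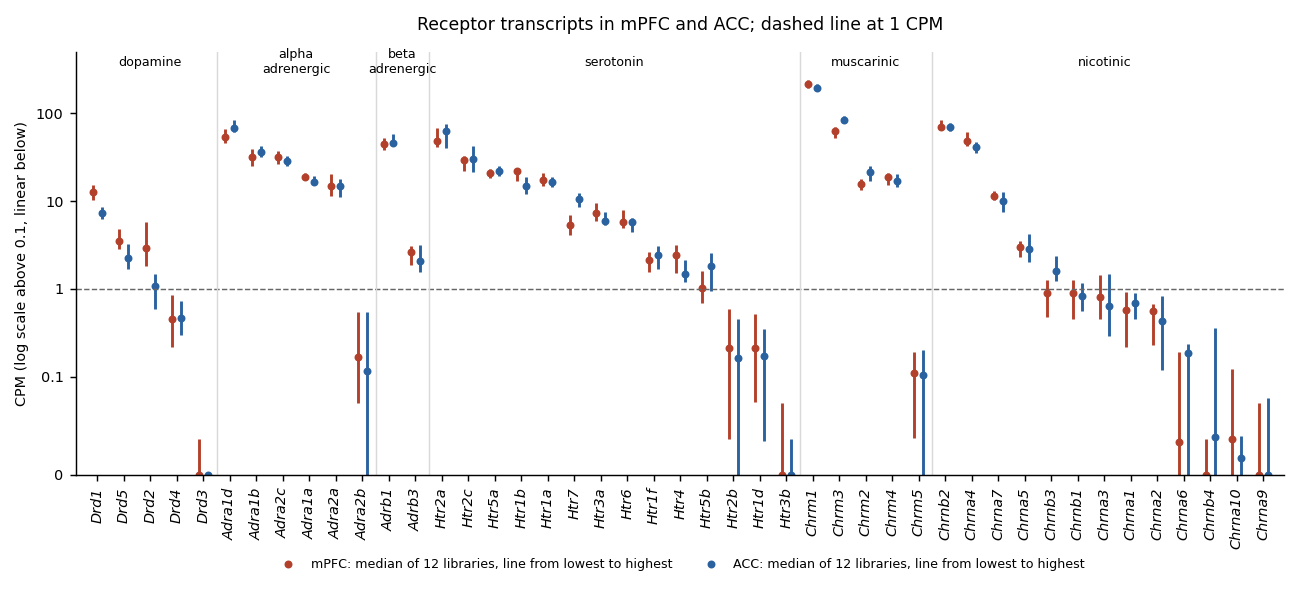
Level of 45 receptors in mPFC (red) and ACC (blue), in CPM on an axis that is logarithmic above 0.1 and linear below; points are medians of 12 libraries and lines run from the lowest to the highest library. Within each family the genes are ordered by mean level, and 15 of them lie under the dashed line at 1 CPM as a mean over all libraries.

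Of the 46 receptors, 15 had a mean under 1 CPM over the 24 libraries. This was 32.6%, against 29.8% of the 19110 protein-coding genes. They were the dopamine receptors Drd3 and Drd4, the alpha adrenergic Adra2b, the muscarinic Chrm5, the serotonin receptors Htr1d, Htr2b and Htr3b, and 8 of the 13 nicotinic subunits (Chrna1, Chrna2, Chrna3, Chrna6, Chrna9, Chrna10, Chrnb1 and Chrnb4). Of these, 13 were under 1 CPM in every library, whereas Chrna3 passed 1 CPM in some libraries (18 of 24 were under it) and Chrnb1 likewise (19 of 24 under). Drd3, Htr3b, Chrna9 and Chrna10 had at most 3 reads in every library, which is at or under the limit that a count of 0 allows, so these receptors were not detectable at this depth.

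The list of low receptors was the same in sham mPFC, sham ACC and SNI ACC. In SNI mPFC it also held 15 genes, but Chrnb1 had moved to the upper side of 1 CPM and Chrnb3 to the lower. Chrnb3, a subunit known mainly from midbrain and visual pathways, ranged from 0.478 to 1.26 CPM in mPFC and from 1.23 to 2.36 CPM in ACC. Receptors at or above 1 CPM in every library numbered 28. Besides Chrna3 and Chrnb1, the receptors that crossed 1 CPM between libraries were Drd2, Htr5b and Chrnb3.

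Among nicotinic subunits, those of the main cortical heteromeric receptor led. Chrnb2 had 63.1 to 82.5 CPM and Chrna4 35.0 to 61.2 CPM over the 24 libraries. Chrna7, which forms the homomeric channel, had 7.54 to 12.9 CPM, and the accessory subunit Chrna5 2.04 to 4.20 CPM. Exons of Chrnb2 overlap those of Adar (263 CPM) on the opposite strand, and the sources used here do not state whether reads were counted by strand. The same holds for Htr1b, whose antisense partner D430036J16Rik had 2.45 CPM against 18.0 CPM for Htr1b, for Adrb3, whose partner Gm45470 had 1.75 CPM against 2.38 CPM, for Drd5, whose partner Gm26560 had 0.648 CPM against 2.98 CPM, and for Htr2b (0.221 CPM), which overlaps Psmd1 (115 CPM). The opposite-strand partners of Adra1d, Chrm1, Chrm2 and Chrna10 had at most 0.36 CPM. Depending on how reads were counted, receptors with such a partner could have gained or lost reads, which was not tested.

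Summed over a family, the levels of mPFC and ACC were apart for dopamine receptors and overlapped for the others. The 5 dopamine receptor genes summed to 16.7 to 24 CPM in the 12 mPFC libraries (median 19.1) and to 8.93 to 13.3 CPM in the 12 ACC libraries (median 11.3), with no overlap. The 14 serotonin receptor genes summed to 150 to 184 CPM in mPFC and 150 to 192 CPM in ACC. The muscarinic sums ran from 276 to 337 CPM and from 294 to 334 CPM, and the nicotinic sums from 124 to 164 CPM and from 115 to 144 CPM, in mPFC and ACC respectively. The sums overlapped between the areas in each of these families, and also for the alpha and beta adrenergic receptors.

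The comparison of mPFC with ACC asked which receptors differed between the areas, and it was made within each sex and treatment on 3 libraries against 3. Drd1, Drd2 and Htr1b were higher in mPFC in all 4 comparisons, and Htr7, Chrm3, Chrm2 and Adra1d were higher in ACC in all 4. The 4 comparisons share no library. By the quasi-likelihood F-test of edgeR at a false discovery rate (FDR) under 0.1 over all genes, 13 of the 36 receptors that passed the filter on low counts differed in sham females (7 higher in mPFC and 6 lower, 36.1%), against 28.5% of all 16746 genes tested (14% higher and 14.5% lower). In sham males 12 of 36 differed (6 and 6) against 14.2% of all genes (7.46% and 6.7%), in SNI females 15 of 36 (8 and 7) against 27.6% (13.7% and 13.9%), and in SNI males 12 of 36 (6 and 6) against 21% (10.4% and 10.6%). The share of receptors was above that of all genes in each comparison, and no test of that difference was made. The count fell to 8 in sham females without the second ACC library and rose to 20 without the third mPFC library, fell to 7 in sham males without the third mPFC library, and fell to 7 in SNI males without the first ACC library. The 10 receptors that did not pass the filter were Adra2b, Chrm5, Chrna6, Chrna9, Chrna10, Chrnb4, Drd3, Htr1d, Htr2b and Htr3b.

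Of the 36 receptors tested in all 4 comparisons, 25 had the same direction in each (14 higher in mPFC and 11 lower), a share to be read against 47.2% of all genes. The 7 named above were called in the same direction in all 4, where 7.16% of all genes were. Drd1, Chrm3 and Htr7 kept these calls with any library left out. In sham females Adra1d, Chrm2 and Htr1b lost theirs without 1 library or another (FDR up to 0.141, 0.125 and 0.119), as did Htr1b in sham males (FDR up to 0.108). Drd5, Chrm1 and Htr5b were called in 3 of the 4, and 15 receptors in none. These calls were less stable: Htr5b lost its call in SNI males in 9 of the alternative fits, DESeq2 among them (FDR up to 0.26), in sham females in 4 and in sham males in 3. Chrm1 lost its calls in 4, 3 and 4 fits with 1 library left out (sham females, SNI females and SNI males), and Drd5 in 3, 2 and 3 (sham males, SNI females and SNI males). With all 24 libraries in 1 fit, Htr2b also passed the filter and 24 of 37 receptors differed, 13 higher in mPFC and 11 higher in ACC, against 48% of all genes (23.9% and 24.1%). The median absolute log2 fold change was 0.24 over these 37 receptors and 0.13 over all genes tested. In 4 receptors the 12 mPFC and the 12 ACC libraries did not overlap at all (Drd1 and Drd2 higher in mPFC, Chrm3 and Htr7 higher in ACC), and 4.85% of all genes did not overlap. Positive log2 fold changes below mean higher in mPFC, and each is given with its standard error (SE).

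**Figure D2:**
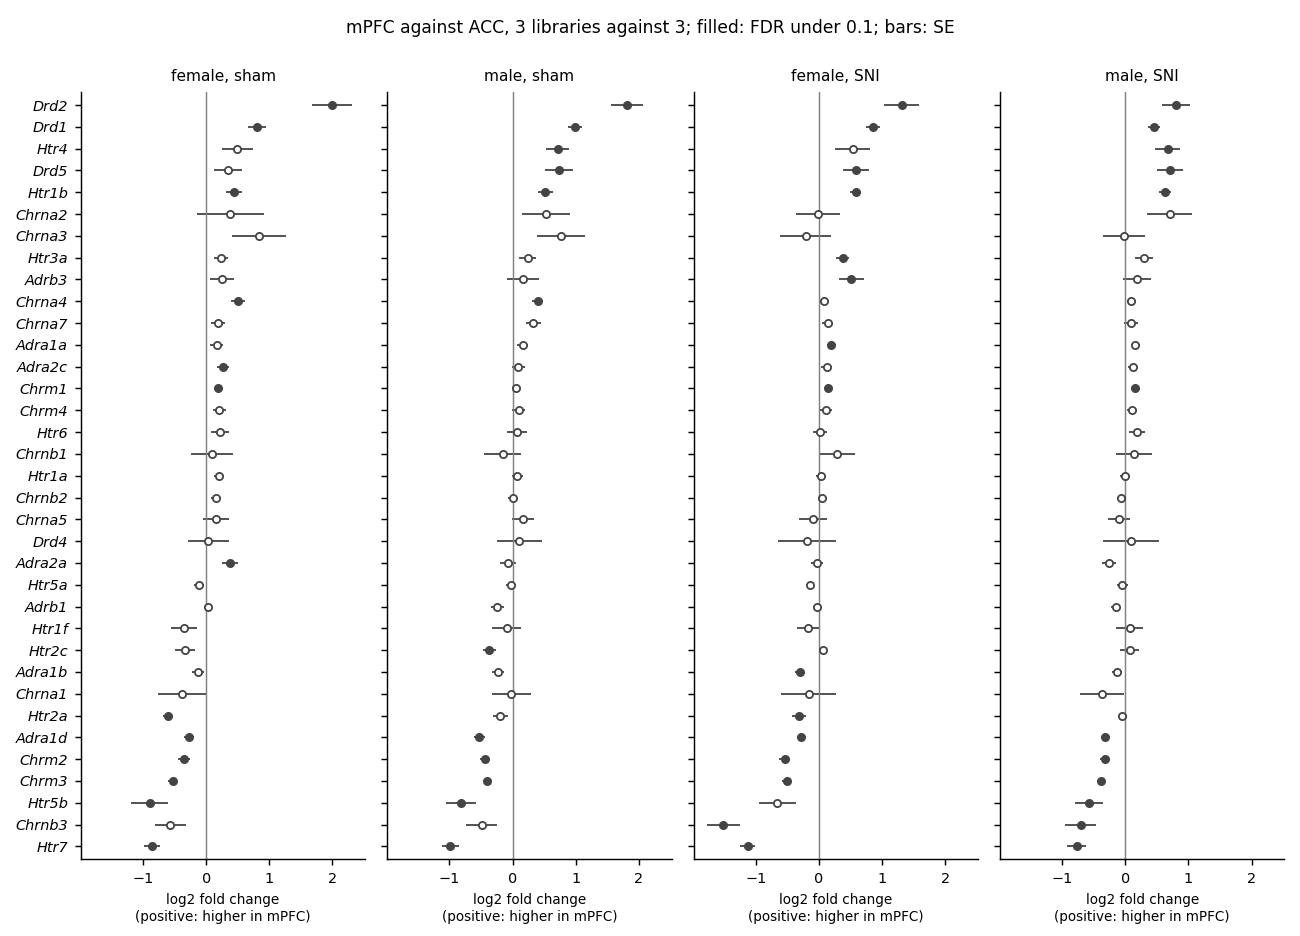
Log2 fold change of mPFC against ACC for 35 receptors that passed the filter, in sham females, sham males, SNI females and SNI males, with SE as bars and filled points where FDR was under 0.1. The genes are ordered by their fold change over all 24 libraries, from Drd2 (1.48) at the top to Htr7 (-0.94) at the bottom, and 7 genes are filled in all 4 panels.

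Dopamine receptors gave the largest differences towards mPFC. Drd2 (chr9:49340627-49408177, GRCm38, plus strand), the Gi-coupled receptor that also serves as autoreceptor on dopamine axons, had 2.67, 5.85 and 4 CPM in the mPFC of sham females and 0.758, 0.887 and 1.49 CPM in their ACC. In sham males it had 3.72, 2.95 and 3.54 CPM in mPFC and 0.951, 0.589 and 1.36 CPM in ACC. The areas did not overlap in either sex. In the SNI groups the mPFC values were 1.89, 3.09 and 1.95 CPM in females and 2.83, 1.84 and 2.21 CPM in males, above the ACC values of 0.666, 1.10 and 1.06 CPM and of 1.15, 1.46 and 1.34 CPM. The fold change of mPFC over ACC was 3.99 in sham females (log2 1.99, SE 0.32, FDR = 0.00209), 3.52 in sham males (log2 1.81, SE 0.26, FDR = 0.00108), 2.49 in SNI females (log2 1.31, SE 0.28, FDR = 0.00522) and 1.75 in SNI males (log2 0.80, SE 0.22, FDR = 0.0275). In SNI males the call was lost without the first ACC library or the first mPFC library, with FDR up to 0.143. Drd2 in ACC rested on 15 reads in its lowest library.

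Drd1 (chr13:54051183-54055705, minus strand) encodes the Gs-coupled receptor. It had 10.4, 14.8 and 14.5 CPM in the mPFC of sham females against 7.70, 8.22 and 6.97 CPM in their ACC, and 12.1, 14.5 and 15.4 CPM against 7.02, 6.91 and 7.41 CPM in sham males. All mPFC libraries were above all ACC libraries. The difference was 0.80 (SE 0.14, FDR = 0.00302) in sham females, 0.98 (SE 0.11, FDR = 0.000229) in sham males, 0.85 (SE 0.11, FDR = 0.000196) in SNI females and 0.45 (SE 0.10, FDR = 0.00769) in SNI males, on the log2 scale. Drd5, the other Gs-coupled dopamine receptor, was higher in mPFC with a log2 fold change of 0.59 (SE 0.12, FDR = 0.000241) over 24 libraries and was not called in sham females (0.34, FDR = 0.31). Drd4, at 0.485 CPM, gave 0.01 (SE 0.20, FDR = 0.979).

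**Figure D3:**
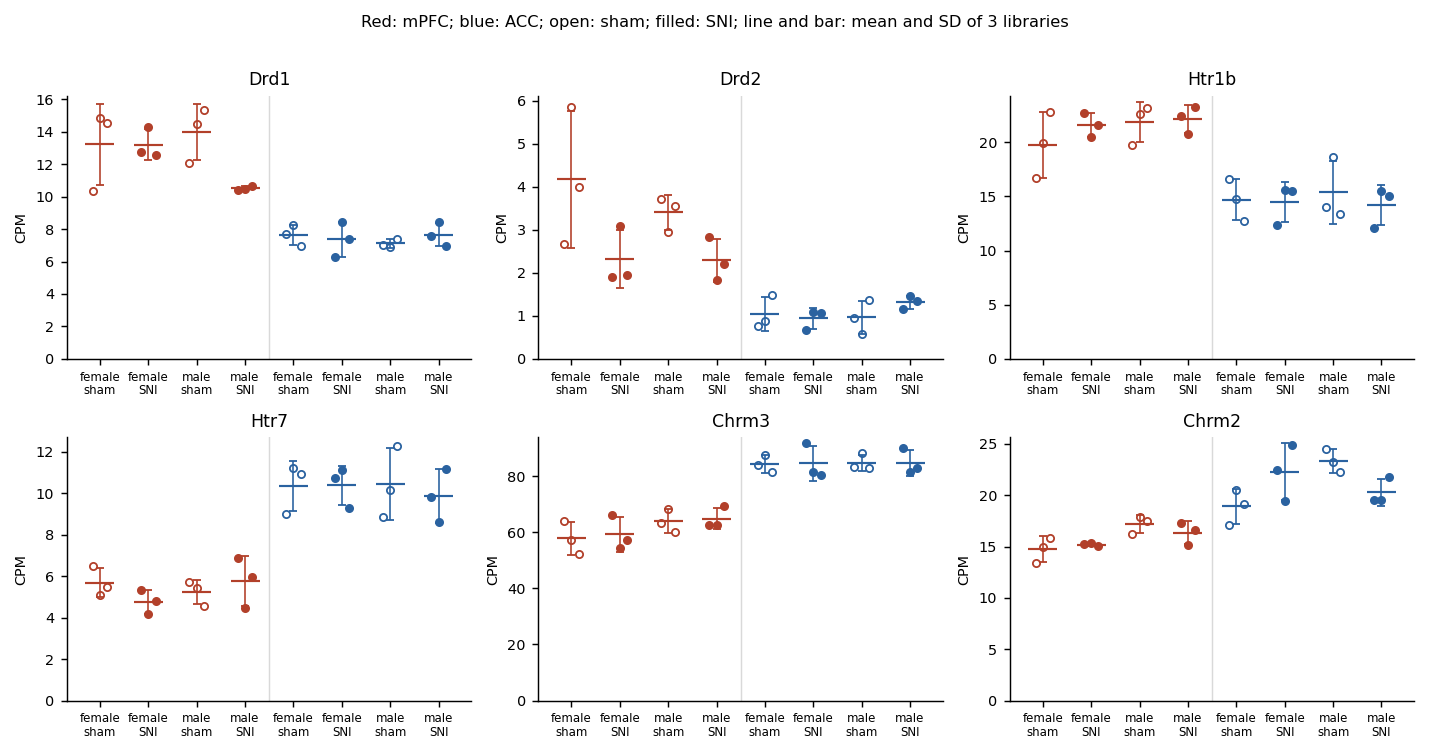
CPM of Drd1, Drd2, Htr1b, Htr7, Chrm3 and Chrm2 in each library, with mPFC in red and ACC in blue, sham open and SNI filled, and the mean and SD of 3 libraries as line and bar; every vertical axis starts at 0. Drd1 in male SNI mPFC sits between 10.4 and 10.7 CPM, under the 12.1 to 15.4 CPM of male sham mPFC.

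Of the serotonin receptors, Htr1b and Htr7 differed in opposite directions. Htr1b (chr9:81628291-81633828, minus strand), the Gi-coupled receptor known from axon terminals, had 16.7 to 23.2 CPM in the 12 mPFC libraries (median 22.0) and 12.1 to 18.7 CPM in the 12 ACC libraries (median 14.9). The ranges overlapped over all libraries but not within any sex and treatment. Its log2 fold changes were 0.44 (SE 0.12), 0.52 (SE 0.12), 0.58 (SE 0.09) and 0.64 (SE 0.09) in sham females, sham males, SNI females and SNI males, with FDR between 0.0303 and 0.000601. Htr7 (chr19:35958734-36057507, minus strand), which is Gs-coupled, had 4.16 to 6.90 CPM in mPFC (median 5.39) and 8.61 to 12.3 CPM in ACC (median 10.5). It was 1.81 times higher in ACC in sham females, 1.98 times in sham males, 2.18 times in SNI females and 1.70 times in SNI males, with FDR between 4.35e-05 and 0.0036. No mPFC library was as high as any ACC library.

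The other serotonin receptors differed less evenly. Htr2a (chr14:74640840-74709494, plus strand), the Gq-coupled receptor of deep-layer pyramidal cells, had 47.6, 41.0 and 47.7 CPM in the mPFC and 69.7, 74.4 and 63.6 CPM in the ACC of sham females, a log2 difference of -0.60 (SE 0.08, FDR = 0.000657). In sham males it had 44.2, 46.2 and 47.1 CPM against 57.1, 60.7 and 40.5 CPM, and the groups overlapped (-0.19, SE 0.12, FDR = 0.402). Htr2a gave -0.31 (SE 0.11, FDR = 0.0686) in SNI females, a call lost in 6 of the alternative fits (FDR up to 0.279), -0.05 (SE 0.07, FDR = 0.702) in SNI males and -0.29 (SE 0.07, FDR = 0.00188) over 24 libraries. Htr4, a Gs-coupled type, was higher in mPFC over 24 libraries (0.60, SE 0.11, FDR = 0.000115), as was the channel subunit Htr3a (0.28, SE 0.06, FDR = 0.000446). Htr5b, at 1.41 CPM, was lower in mPFC (-0.74, SE 0.13, FDR = 3.07e-05). Htr1a gave 0.07 (SE 0.04, FDR = 0.144) and Htr6 0.12 (SE 0.07, FDR = 0.162), and neither was called.

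Htr2c, the Gq-coupled serotonin receptor that is also known for its abundance in choroid plexus epithelium, was called lower in mPFC in sham males only among the 4 comparisons (-0.36, SE 0.10, FDR = 0.0493). This call was lost in 5 of the alternative fits, with FDR up to 0.164. Htr2c had 42.5, 32.0 and 26.8 CPM in female sham ACC, and 41.3, 30.4 and 38.9 CPM in male sham ACC. The highest of the 24 values was in the first female sham ACC library, in which choroid plexus markers summed to 977 CPM and Ttr, the transthyretin gene, reached 871 CPM. The choroid plexus sum in male sham ACC was 4.87 to 7.94 CPM, so that Htr2c was as high as 41.3 CPM where that sum was low. The part of choroid plexus tissue in the value of the female library was not tested.

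**Figure D4:**
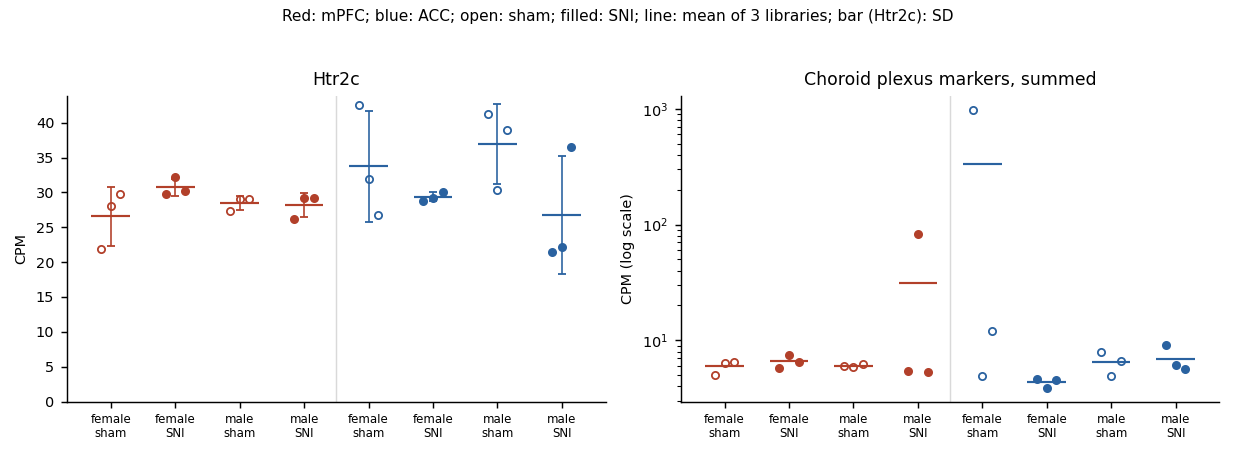
CPM of Htr2c (left, axis from 0, mean and SD of 3 libraries) and summed CPM of choroid plexus markers (right, log axis, line at the mean) in each library, with mPFC in red and ACC in blue, sham open and SNI filled. The first female sham ACC library is highest in both panels, at 42.5 and 977 CPM, while the male SNI mPFC library with 83.6 CPM of choroid markers has 29.2 CPM of Htr2c.

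Among the muscarinic receptors the 2 largest differences were both towards ACC. Chrm3 (chr13:9875486-10360847, minus strand), Gq-coupled, had 52.4 to 69.2 CPM in mPFC (median 62.6) and 80.4 to 91.8 CPM in ACC (median 83.1) with no overlap, and its log2 fold changes were -0.53 (SE 0.07), -0.40 (SE 0.07), -0.51 (SE 0.07) and -0.39 (SE 0.06) in sham females, sham males, SNI females and SNI males. Chrm2 (chr6:36388084-36528414, plus strand), the Gi-coupled type found on cholinergic axons and some interneurons, had 13.4 to 17.9 CPM in mPFC and 17.1 to 24.9 CPM in ACC, with -0.35 (SE 0.09), -0.43 (SE 0.08), -0.54 (SE 0.09) and -0.31 (SE 0.08). Chrm1 (chr19:8663789-8683587, plus strand), Gq-coupled and the highest receptor by CPM, went the other way with a small difference of 0.13 over 24 libraries (SE 0.03, FDR = 0.000457). Its libraries ran from 192 to 239 CPM in mPFC and from 178 to 213 CPM in ACC, so the ranges overlapped. The Gi-coupled Chrm4 was also slightly higher in mPFC (0.13, SE 0.05, FDR = 0.0392), a call lost when any of 3 libraries was left out.

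The adrenergic receptors split within the alpha family. Adra1d (chr2:131545850-131562283, minus strand) was lower in mPFC in all 4 comparisons, at 45.5 to 65.3 CPM (median 53.1) against 60.3 to 82.7 CPM in ACC (median 67.3), and its difference was -0.35 over 24 libraries (SE 0.05, FDR = 1.19e-06). Adra1b, also Gq-coupled, was lower as well (-0.20, SE 0.05, FDR = 0.00167), whereas Adra1a was higher (0.17, SE 0.04, FDR = 0.00144). The 3 alpha-1 subtypes thus differed between the areas in different directions. Of the Gi-coupled alpha-2 receptors, Adra2c was higher in mPFC (0.14, SE 0.05, FDR = 0.0267), while Adra2a was called only in sham females (0.38, SE 0.13, FDR = 0.0557), a call lost without the second ACC or the second mPFC library (FDR up to 0.212), and gave 0.00 over 24 libraries (SE 0.08). For beta receptors, Adrb1 was lower in mPFC (-0.10, SE 0.05, FDR = 0.0793) and Adrb3 was higher (0.27, SE 0.11, FDR = 0.0549). The calls of Adrb1 and Adrb3 were lost in 10 and 5 of the alternative fits.

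Of the nicotinic subunits, Chrnb3 was lower in mPFC, at -0.82 over 24 libraries (SE 0.14, FDR = 2.18e-05). Within the groups it was called in SNI females (-1.51, SE 0.27, FDR = 0.00178) and SNI males (-0.71, SE 0.25, FDR = 0.0733), the latter lost in 5 of the alternative fits, DESeq2 among them (FDR up to 0.219), while sham females gave -0.57 (SE 0.25, FDR = 0.13) and sham males -0.49 (SE 0.24, FDR = 0.262). The interaction of area and SNI for Chrnb3 was not called in females (-0.94, SE 0.37, FDR = 0.428) or in males (-0.21, SE 0.33). Over 24 libraries Chrna4 was higher by 0.26 (SE 0.06, FDR = 0.000685) and Chrna7 by 0.18 (SE 0.06, FDR = 0.0119). Chrna4 had 51.9, 61.2 and 43.5 CPM in the mPFC and 36.0, 36.2 and 39.0 CPM in the ACC of sham females, a log2 difference of 0.50 (SE 0.10, FDR = 0.00776), and 0.40 (SE 0.08, FDR = 0.0127) in sham males. After SNI it was 0.09 (SE 0.07, FDR = 0.442) in females and 0.10 (SE 0.07, FDR = 0.419) in males. Chrnb2, its usual partner, gave 0.03 over 24 libraries (SE 0.04, FDR = 0.535).

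Markers of several cell types also differed between the areas over the same 24 libraries, in which 48% of all genes were called. Layer 6 markers were higher in mPFC for 6 of 9 and lower for 1, layer 5 markers higher for 4 of 10 and lower for 5, and layer 2/3 markers higher for 5 of 8 and lower for 2. Astrocyte markers were lower in mPFC for 6 of 7, oligodendrocyte markers for 7 of 10 and endothelial and mural markers for 8 of 9. Inhibitory neuron markers summed to 1316 to 1434 CPM in mPFC and 1370 to 1522 CPM in ACC, with overlap. Pvalb among them had 8.91 to 15.2 CPM in mPFC and 31.0 to 44.8 CPM in ACC, while Reln had 119 to 142 CPM and 103 to 120 CPM. Because striatal neurons carry much Drd1 and Drd2, their markers were set beside these genes. Of 14 tested, 8 were higher and 3 lower in mPFC, with Rgs9 at 0.67 (SE 0.08) and Penk at -0.61 (SE 0.08) on the log2 scale. Adora2a, the adenosine receptor of Drd2-bearing striatal cells, had 2.57 to 5.33 CPM in mPFC and 2.43 to 3.78 CPM in ACC, and Six3 had at most 0.814 CPM in any library. The summed level of the 15 striatal genes was 902 to 1021 CPM in mPFC and 824 to 896 CPM in ACC. Rgs9 gave at most 23.2 CPM of it in any library, so other genes of the list carried most of this sum. Claustrum and endopiriform markers, of which 3 of 5 were higher and 1 lower, summed to 164 to 212 CPM in mPFC and 124 to 149 CPM in ACC. The part of these cell types in the receptor differences was not tested. Without the pair of libraries that stood apart, an alternative chosen after seeing the data, 23 receptors were called over the remaining libraries, 22 of them shared with the 24 called before, and Drd2 gave 1.44 and Drd1 0.77.

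Other genes of these transmitter systems, taken from lists drawn up by function, also went both ways. Of 22 genes for transmitter synthesis, storage, uptake and breakdown, 16 were tested over 24 libraries, 5 higher in mPFC and 5 lower. Tph2, the neuronal enzyme of serotonin synthesis, was lower in mPFC (-1.43, SE 0.21), as were the choline ester-cleaving enzyme Bche (-0.54, SE 0.09) and the organic cation transporter Slc22a2 (-0.72, SE 0.17), while the choline transporter Slc5a7 was higher (0.77, SE 0.16). Of 9 nicotinic chaperones and lynx proteins, 3 were higher and 4 lower, with Lypd1 at 0.75 (SE 0.04) and Lynx1, a brake on nicotinic channels, at -0.82 (SE 0.05). Of 39 tested G proteins, effectors and regulators, 14 were higher and 11 lower. These counts stand beside 23.9% of all genes higher and 24.1% lower. Among them the receptor kinase Grk3 (0.36, SE 0.02) and Rgs14 (0.55, SE 0.05) were higher, and the adenylyl cyclase Adcy1 (-0.27, SE 0.03) was lower. The median log2 fold change was 0.01 in the first list, -0.07 in the second and 0.04 in the third, against 0.00 over all genes.

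The comparison of SNI with sham asked which receptors changed 2 weeks after nerve injury. No receptor passed FDR under 0.1 by the edgeR test in any of the 4 comparisons of 1 sex and 1 area. All genes tested gave 0.00592% called in female mPFC, 0.494% in male mPFC, 0.024% in female ACC and 0.00599% in male ACC. Of the 36 receptors tested, 2, 10, 6 and 3 had an unadjusted p under 0.05 in female mPFC, male mPFC, female ACC and male ACC, and the smallest FDR values were 0.401, 0.108, 0.46 and 0.768. With DESeq2, 2 receptors were called in male mPFC (Drd1 and Adra1b, where 1.67% of all genes were called) and 0 in each of the others. With the replicate number as a block, edgeR called 5 receptors in male mPFC, where 4.39% of all genes were called. That number was not taken as a pairing, as described at the end. Calls without the filter on low counts are also given there. In male mPFC, 27.8% of receptors had an unadjusted p under 0.05 against 11.2% of all genes, and in female mPFC 5.56% against 12.1%. In ACC the shares of all genes were 6.67% in females and 4.48% in males. The median absolute log2 fold change was 0.14 over the receptors and 0.08 over all genes in male mPFC, and 0.10 and 0.12 in female mPFC.

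**Figure D5:**
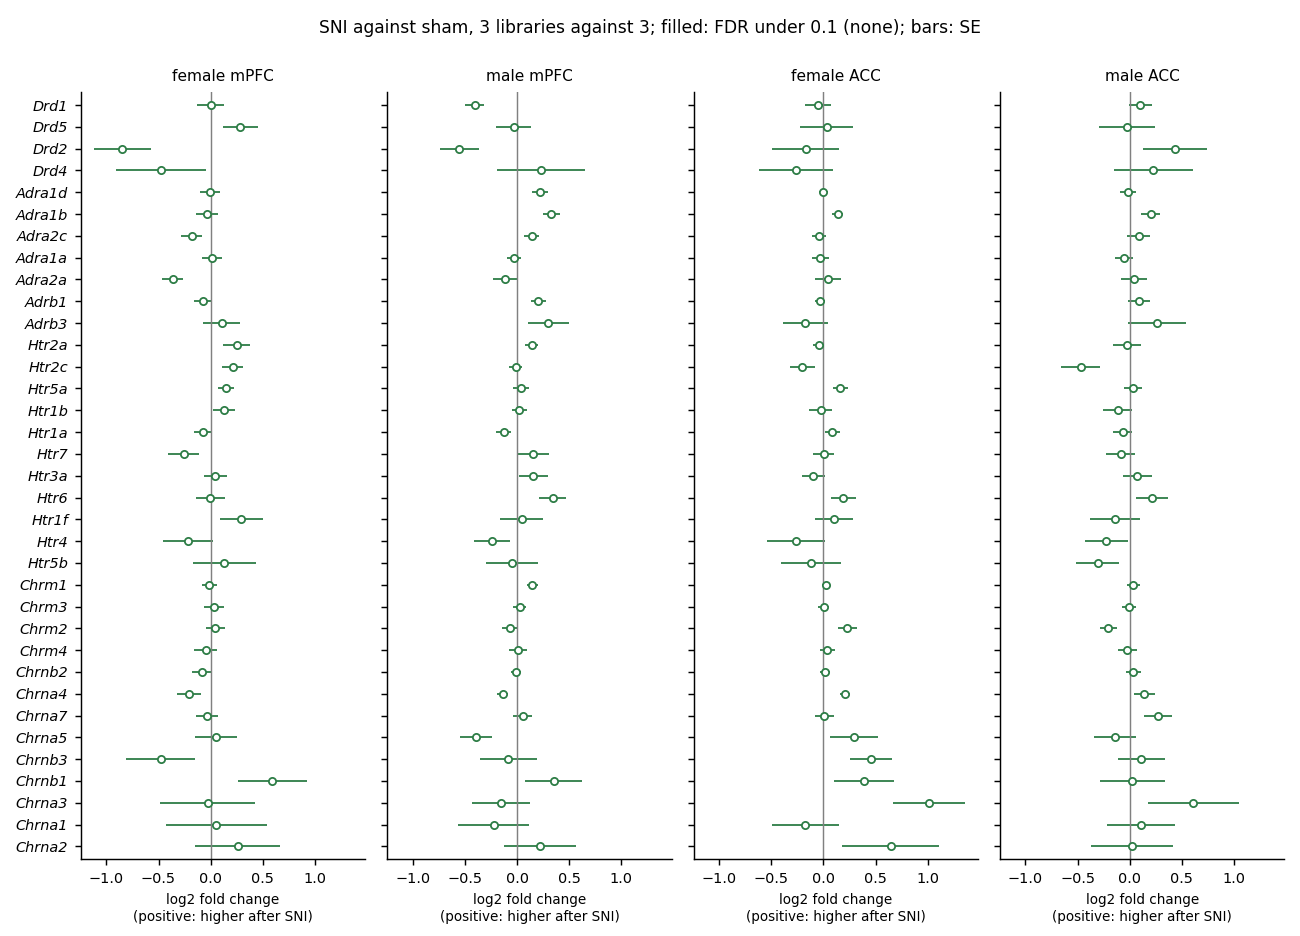
Log2 fold change of SNI against sham for 35 receptors that passed the filter, in female mPFC, male mPFC, female ACC and male ACC, with SE as bars; all points are open because none had FDR under 0.1. Drd2 lies below 0 in mPFC (-0.85 in females and -0.55 in males) and at -0.17 and 0.43 in ACC.

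In male mPFC the smallest p values belonged to Drd1 and Adra1b. Drd1 had 12.1, 14.5 and 15.4 CPM in sham and 10.4, 10.5 and 10.7 CPM in SNI males, with no overlap, and a log2 fold change of -0.41 (SE 0.09, FDR = 0.108). In female mPFC it had 10.4, 14.8 and 14.5 CPM in sham and 12.8, 14.3 and 12.6 CPM after SNI, a difference of 0.00 (SE 0.13). The interaction of sex and SNI for Drd1 in mPFC was 0.41 (SE 0.17, FDR = 0.272). Adra1b had 25.1, 32.0 and 30.5 CPM in sham and 36.4, 34.0 and 39.2 CPM in SNI males, again without overlap (0.33, SE 0.08, FDR = 0.135). Over all alternative fits, the FDR of Drd1 ran from 0.00214 to 0.616 and that of Adra1b from 0.000134 to 0.653. Adra1d alone was called without the first SNI library, where 0.73% of all genes were, and Drd1 alone without the first sham library, where 0.185% were. In this comparison 8 of 36 receptors had groups that did not overlap, 3 higher and 5 lower after SNI, against 16.9% of all genes.

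Drd2 in mPFC had a lower mean after SNI than after sham in females and in males, without passing the threshold. Its values are given above by library, and the sham and SNI ranges overlapped in females (2.67 to 5.85 against 1.89 to 3.09 CPM) but not in males (2.95 to 3.72 against 1.84 to 2.83 CPM). The log2 fold change was -0.85 (SE 0.27, FDR = 0.401) in females and -0.55 (SE 0.19, FDR = 0.266) in males. For males, edgeR with the replicate number as a block gave -0.57 (FDR = 0.0904), where 4.39% of all genes were called. With 1 library left out the value in females ran from -1.12 to -0.52, the latter without the second sham library. With both sexes in 1 fit, a value singled out after it was seen, it was -0.70 (SE 0.18, FDR = 0.349), and DESeq2 called it at FDR = 0.0774, where 0.357% of all genes were called. Without the filter on low counts edgeR called Drd2 in that fit (FDR = 4.65e-05, where 1.71% of all genes were called) and in females (FDR = 0.00114), and over all alternatives the FDR ran from 4.65e-05 to 0.704 with both sexes. With the filter, the fits of both sexes called 0 receptors by edgeR in mPFC and 0 in ACC, where 0% of all genes were, and 5 receptors in each area had an unadjusted p under 0.05, against 7.33% of all genes in mPFC and 5.56% in ACC. DESeq2 called only Drd2 in mPFC and 0 in ACC.

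In female mPFC the smallest p was that of Adra2a, the Gi-coupled alpha-2 receptor known from prefrontal working memory. It had 17.5, 20.2 and 17.1 CPM in sham and 12.8, 15.2 and 14.5 CPM after SNI, with no overlap (-0.37, SE 0.10, FDR = 0.401). The groups did not overlap in 4 of 36 receptors here, against 15% of all genes. Leaving out the third female sham mPFC library brought 6 receptors under FDR 0.1, namely Adra2a, Adra2c, Drd2 and Chrna4, lower after SNI, and Htr2b and Htr2c, higher. Without that library 15.9% of all genes were called, and leaving out any other library of this comparison brought 0 receptors. Htr2b was under 1 CPM in every library and did not pass the filter with all libraries. It had 7, 16 and 11 reads after SNI and 1, 1 and 5 in sham, the 5 in the library left out. Its call thus rests on few reads and on passing the filter through the SNI group. In the third female sham mPFC library Chrna4 was 43.5 CPM against 51.9 and 61.2 CPM in the others of its group.

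In female ACC the smallest p was that of Chrna4, with 36.0, 36.2 and 39.0 CPM in sham and 41.8, 43.1 and 43.8 CPM after SNI (0.20, SE 0.05, FDR = 0.46). It was followed by Chrna3, with 1.01 (SE 0.35, FDR = 0.635) at a mean of 0.493 CPM in sham and 1.02 CPM in SNI. The groups did not overlap in 5 of 36 receptors, all higher after SNI, against 11.8% of all genes. In male ACC the smallest p values were those of Chrm2 (-0.21, SE 0.08, FDR = 0.768) and Htr2c (-0.47, SE 0.19, FDR = 0.768). Htr2c had 21.5, 22.2 and 36.5 CPM after SNI and 41.3, 30.4 and 38.9 CPM in sham, and the ranges overlapped. With 1 library left out, the log2 fold change of Htr2c ran from -0.76 to -0.33. Only 1 of 36 receptors did not overlap, against 8.2% of all genes. Without the third male sham ACC library 13.5% of all genes were called, and with them Chrm2 and Adrb1.

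The interactions of SNI with area asked whether the change differed between mPFC and ACC. No receptor was called by edgeR in either sex, nor was any gene (0%), with 4 receptors at an unadjusted p under 0.05 in females and 3 in males (11.1% and 3.19% of all genes), and 0 called by DESeq2. The lowest p in females was that of Chrna4 (-0.42, SE 0.14, FDR = 0.428). In males it was that of Drd1 (-0.52, SE 0.14), followed by Drd2 (-1.001, SE 0.36), both at FDR = 0.9999. The smaller regional difference of Drd1 and Drd2 in SNI males than in sham males is thus a pair of values that did not pass the test. The interactions of SNI with sex gave 0 called receptors in mPFC and in ACC by edgeR and by DESeq2, with 4 and 1 at an unadjusted p under 0.05 (15.8% and 5.92% of all genes), and 0% of all genes called.

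Markers of other cells moved with the SNI groups in mPFC. In male mPFC 8 of 10 oligodendrocyte markers and 3 of 9 layer 6 markers were lower after SNI and 0 were higher, against 0.494% of all genes called, and layer 6 markers summed to 271 to 297 CPM in sham and 219 to 249 CPM in SNI. Excitatory neuron markers summed to 5215 to 5566 CPM in sham and 5845 to 6176 CPM in SNI males, without overlap. Inhibitory neuron markers summed to 1332 to 1365 CPM in sham and 1372 to 1434 CPM in SNI males. Both of these neuron lists overlapped between sham and SNI in females. The oligodendrocyte sums were 3419 to 3933 CPM in sham and 2033 to 2943 CPM in SNI males, and 3005 to 3458 CPM against 1128 to 2829 CPM in females. The lowest female value was in the first SNI library, which stood apart, and the others of its group had 2829 and 2580 CPM. In female mPFC only 1 of all 16897 genes tested was called. Of 13 striatal markers tested in male mPFC, 0 were called, 8 were above 0, and the median log2 fold change was 0.04. In female mPFC 0 of 13 were called as well, but 5 had an unadjusted p under 0.05, 3 were above 0 and the median was -0.10. The striatal sum in female mPFC was 940 to 1021 CPM in sham and 902 to 930 CPM in SNI, without overlap, and in male mPFC 906 to 945 CPM and 922 to 950 CPM, with overlap. Rgs9 and Adora2a gave at most 23.2 and 5.33 CPM of it in any library, so other genes of the list carried most of this sum. Adora2a had 3.43, 5.33 and 3.63 CPM in sham and 2.57, 2.87 and 3.06 CPM in SNI females, so that it and Drd2 were both highest in the second sham library. The part of these cell types in the values of Drd1, Drd2 and the other receptors was not tested. The 3 pathway lists had 0 genes called by edgeR in all 4 comparisons of SNI with sham. At an unadjusted p under 0.05 they had 6 of 62 tested in female mPFC, 11 of 60 in male mPFC, 7 of 62 in female ACC and 1 of 62 in male ACC, to be read against the shares of all genes given above (12.1%, 11.2%, 6.67% and 4.48%).

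The comparison of females with males asked where receptor levels differed by sex. After SNI in ACC, 5 of 36 receptors differed (2 higher in females and 3 lower), against 23.5% of all genes (13.4% and 10.1%). Htr2a had 65.6, 67.6 and 68.3 CPM in females and 51.6, 55.6 and 48.9 CPM in males (0.37, SE 0.06, FDR = 0.00362), and Htr1a, the Gi-coupled receptor that hyperpolarizes pyramidal cells, had 19.0, 17.7 and 18.8 CPM against 14.6, 16.5 and 14.6 CPM (0.28, SE 0.08, FDR = 0.0302). Adra1d (-0.24, SE 0.05, FDR = 0.00881), Adrb1 (-0.22, SE 0.05, FDR = 0.0173) and Chrm1 (-0.12, SE 0.04, FDR = 0.0669) were lower in females. In sham ACC these 5 were not called, but their means lay in the same directions. Females and males had means there of 69.2 and 52.8 CPM for Htr2a and 17.4 and 15.9 CPM for Htr1a. The means were 62.8 and 74.5 CPM for Adra1d, 45.5 and 48.6 CPM for Adrb1, and 185 and 199 CPM for Chrm1. These calls therefore do not show a sex difference that arose after SNI. The share of receptors called, 13.9%, was under that of all genes. Astrocyte markers summed to 5975 to 6055 CPM in SNI ACC of females and 5140 to 5926 CPM in that of males. Endothelial and mural markers summed to 425 to 427 CPM and 430 to 439 CPM. The part of these cell types in the receptor values was not tested. The calls of Htr2a and Adra1d held in every alternative run on this comparison, Adrb1 was lost in 1, Htr1a in 3 and Chrm1 in 6. The count was 3 without the first or the third female library and 10 without the third male library.

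In the other 3 comparisons of the sexes no receptor was called by edgeR, against 0.177% of all genes in sham mPFC, 0.0958% in sham ACC and 0.076% in SNI mPFC. The number with an unadjusted p under 0.05 was 5, 4 and 6, where the shares of all genes were 10.6%, 6.64% and 14%. DESeq2 called Adra2a in sham mPFC, where it called 0.651% of all genes, and 0 receptors in the others. Adra2a had 17.5, 20.2 and 17.1 CPM in the mPFC of sham females and 15.2, 13.0 and 13.1 CPM in sham males, without overlap (0.42, SE 0.09, FDR = 0.203). Htr1a was above males in sham mPFC as well, at 18.9, 20.3 and 20.3 CPM against 16.6, 17.6 and 15.8 CPM (0.25, SE 0.08, FDR = 0.323).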

How the data were processed

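Total RNA of mPFC and ACC was sequenced in 24 libraries, 3 for each of 8 groups defined by sex, surgery and area. The deposited values were raw read counts per gene, which the authors made by trimming with Trimmomatic 0.36, removing ribosomal reads with Bowtie2 2.33, aligning to GRCm38 with HISAT2 2.1.0 and counting with HTSeq 0.9.1, with edgeR 3.34.0 also named, as versions stand in the submitters' processing notes. The strand setting and annotation release were not given in the sources used here.

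Counts were tested across all genes with edgeR 4.0.16 in R 4.3.3 (filterByExpr at a minimum count of 10, TMM factors, legacy quasi-likelihood F-test, Benjamini-Hochberg FDR under 0.1), separately on the libraries of each of 19 comparisons. The fit over 24 libraries had the 4 sex by surgery groups as a term. The test was tried on simulated counts first. Alternatives were DESeq2 1.42.0, RLE factors, no filter on low counts, the current quasi-likelihood method, 1 model of 24 libraries, a replicate block and leaving out each library. By the study's methods each library was an independent pool of animals, so p-values measure the spread between pools. Between any 2 libraries of a group the counts differed by more than sampling noise (chi-square of 2.67 to 19.9 per gene over 24 pairs).

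Members and lists were chosen with earlier results of these data known. Values were given in full for receptors called in a comparison, for the highest of each family, and for the 2 smallest p-values in each comparison of SNI with sham. Drd1, Drd2 and Chrna4 in other comparisons and Adra2a and Htr1a between the sexes were added after their values were seen. The counts include 1 receptor that is not reported by name or in the plots. From each other list the genes with the smallest p were named.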

Additional observations from a re-analysis of the deposited data

How the results depend on the processing

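Of the counts and the single-receptor values that were recomputed, none changed direction. Some printed values of receptors that were not called, such as Adra2a and Htr1a over 24 libraries, were not recomputed. The number of receptors called in mPFC against ACC stayed within 1.5 times of 13, 12, 15, 12 and 24 (sham females, sham males, SNI females, SNI males and 24 libraries) with DESeq2, RLE factors, no filter on low counts, the current quasi-likelihood method and, for the first 4 comparisons, 1 model of 24 libraries. The receptors under 1 CPM numbered 15 in every setting.

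Without the filter on low counts, the 0 receptors of SNI against sham became 3 in female mPFC, 4 in male mPFC, 3 in female ACC and 4 in mPFC of both sexes together, where 2.19%, 2.01%, 1.38% and 1.71% of all genes were called. The same setting gave 1 for the sexes in sham mPFC, 4 in SNI mPFC, 2 for the interaction of sex and SNI in mPFC, and 3 in females and 1 in males for the interaction of area and SNI, in place of 0 (1.58%, 3.27%, 2.79%, 2.16% and 0.407% of all genes). DESeq2 gave 2 in male mPFC after SNI, 1 with both sexes in mPFC and 1 for the sexes in sham mPFC (1.67%, 0.357% and 0.651% of all genes). The current quasi-likelihood method gave 1 in male mPFC after SNI (0.659%). In SNI ACC the 5 receptors that differed by sex became 3 in the model of 24 libraries. The cause of these shifts was not tested.

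Leaving out 1 library gave 8 to 20 receptors for the areas in sham females, 7 to 14 in sham males, 10 to 14 in SNI females, 7 to 11 in SNI males and 21 to 25 over all groups. For SNI against sham it gave 0 to 6 in female mPFC, 0 to 1 in male mPFC and 0 to 2 in male ACC. For the sexes it gave 0 to 5 in sham mPFC and 3 to 10 in SNI ACC. For the interaction of sex and SNI it gave 0 to 6 in mPFC and 0 to 2 in ACC, and for that of area and SNI in females 0 to 1. The upper value came without the third female sham mPFC library (areas in sham females, SNI in female mPFC, sexes in sham mPFC, and the interactions of sex and SNI in mPFC and of area and SNI in females), or without the third male sham ACC library (SNI in male ACC, interaction of sex and SNI in ACC).

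With the replicate number as a block, male mPFC had 5 receptors called after SNI in place of 0 (Drd1, Drd2 at FDR = 0.0904, Adra1b, Adra1d and Chrm1), where 4.39% of all genes were called against 0.494% without it, and the areas had 13, 14, 15, 13 and 24. The sexes in SNI ACC had 6 and the other comparisons 0. Libraries that share a number did not all deviate together, with r of -0.237 to 0.313 between mPFC and ACC, against -0.358 to 0.357 for unlike numbers, and of -0.498 to 0.34 between SNI and sham, against -0.372 to 0.468. In male mPFC, where the block changed the count, the same-number pairs of SNI and sham had r of 0.297, 0.222 and 0.0554 and unlike numbers -0.244 to 0.0683. The third sham library correlated best with an unlike number, at 0.0683 against 0.0554. In female mPFC the same-number pairs had r of -0.0494, 0.34 and 0.178 and unlike numbers -0.372 to 0.18. A pairing was not stated, and a check on so few pairs cannot decide it. The numbers were therefore not taken as a pairing.

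Over single receptors, 1430 values kept their direction and side of the threshold, 124 lost a call and 18 gained one. With 3 libraries a group and 3 reads at 0.0913 to 0.126 CPM, small differences in low receptors were not detectable.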
